A study of Mus musculus with 6 samples.

Results

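The NF-kB subunit and inhibitor genes are the genes of the transcription factor proteins themselves (Nfkb1, Nfkb2, Rel, Rela and Relb), of the IkB proteins that hold them back (Nfkbia, Nfkbib and Nfkbie), of the IkB-like nuclear protein BCL-3 (Bcl3) and of the ubiquitin-editing enzyme A20 (Tnfaip3). They were chosen by function, with earlier results of these data known, by matching the symbols of 10 genes to the array annotation. Of these, 9 were measured, each by 1 probe set, among 18784 genes in all, and Nfkb1 was not analysed here. The levels are log2 expression values from Affymetrix arrays of total RNA, on which a step of 1 is a doubling.

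The cells were mouse B lymphoma cells in culture. All 6 arrays came from Arf-/- lymphomas with Eµ-myc and Bcl-2 transgenes, in which an immunoglobulin enhancer drives MYC in B cells. The cells were kept on irradiated Arf-/- embryonic fibroblasts and were transduced with a short hairpin RNA. The 3 control arrays had the hairpin Rluc.713, named for Renilla luciferase, and the 3 others had Dhx9.1241, a hairpin named for the RNA helicase gene Dhx9. The labels disagree on the target: the titles of these 3 arrays name a knockdown of another helicase gene, Dhx29, and the groups here follow the hairpin. The study asked what alters the response of such lymphomas to the BCL-2 inhibitor ABT-737, but no label names a drug on these arrays. One hairpin stands for the loss of Dhx9, the labels do not say whether the lymphoma is 1 clone or whether replicates grew apart from each other, and every p-value rests on array-to-array spread that may be technical.

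The NF-kB proteins bind DNA as pairs. In resting cells IkB proteins keep the pairs made of RELA or c-Rel in the cytoplasm; signals from antigen, Toll-like and TNF family receptors activate the IKK kinases, which mark IkB for destruction. A second, slower route, fed in B cells by CD40 and the BAFF receptor, processes the NFKB2 precursor and frees RELB. Several of the inhibitors are themselves switched on by NF-kB, which makes their RNA a feedback readout, and the DHX9 protein has been described as a partner of RELA in gene activation.

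None of the 9 measured genes passed the test in either direction. Nfkb2 and Tnfaip3 had the largest mean differences, both 0.20 on the log2 scale, or 1.15-fold higher in Dhx9.1241, and the other 7 lay between -0.12 and 0.06. The gene named by the hairpin, Dhx9, was 1.99-fold lower on the same arrays (adjusted p = 0.000129). Across all genes, 3.14% passed at an adjusted p under 0.05 (limma with Benjamini-Hochberg adjustment), 2.07% in the higher and 1.07% in the lower direction, beside 0 of the 9. At an unadjusted p under 0.05, 2 of the 9 were higher and 1 lower, where 14.1% of all genes lay past that level.

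The arrays set limits on these values. Rluc.713 replicate 1 stood apart from the other arrays on the second principal component, at 16.7 against -5.61 to 3.62, so the differences are also given without it. B cell markers, among them Cd79a, Pax5 and Ms4a1, were bright on every array. The mean log2 level of 10 of them was 12.710 to 12.810 in the control and 12.642 to 12.708 in Dhx9.1241. Of the 10 differences, 8 were negative and 2 positive, and 1 marker passed as lower, beside 1.07% of all genes. They ran from -0.57 to 0.31. The groups did not overlap in 6 of the 10, 5 lower and 1 higher, beside 20.1% of all genes. The mean of 16 fibroblast markers, the cells of the feeder layer, was 8.36 to 8.52 and 8.38 to 8.39. In such bulk samples fewer cells of a type and less RNA per cell cannot be told apart.

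Many of these genes carry a match to the kB consensus, the sequence NF-kB proteins bind, beside their own start. The matches are shown here as a description of the sequence. RefSeq windows of assembly GRCm38.p6, from 250 bases before to 50 after an annotated start, were matched for 8 of the 9 genes (Relb had no entry), and 6 of the 8 had at least 1 match to the 10-base consensus on either strand. Over all genes with a window, 5.14% had one. The members were picked by function, so the 2 shares are a description, and a match is not shown to be a bound site in these cells. Places matched on both strands were counted once, and overlapping matches are printed as 1 stretch of capitals.

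The region before the start of Rel, on the minus strand at chr11:23770970-23771219, holds 2 overlapping matches. That before the start of Nfkbia, on the minus strand at chr12:55492648-55492897, holds 1 match close to the start. That of Tnfaip3, on the minus strand at chr10:19015411-19015660, holds 2. The window of another annotated start of Tnfaip3 (chr10:19011914-19012213) held no match and is not printed. Each region with a match is printed 5′ to 3′ up to the base before the annotated start, with the matches in capitals.
Rel: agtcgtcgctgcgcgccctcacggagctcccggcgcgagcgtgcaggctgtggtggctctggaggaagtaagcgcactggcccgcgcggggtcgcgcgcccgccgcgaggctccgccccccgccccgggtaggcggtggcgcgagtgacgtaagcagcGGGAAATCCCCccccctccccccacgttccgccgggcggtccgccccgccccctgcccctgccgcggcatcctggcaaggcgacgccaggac
Nfkbia: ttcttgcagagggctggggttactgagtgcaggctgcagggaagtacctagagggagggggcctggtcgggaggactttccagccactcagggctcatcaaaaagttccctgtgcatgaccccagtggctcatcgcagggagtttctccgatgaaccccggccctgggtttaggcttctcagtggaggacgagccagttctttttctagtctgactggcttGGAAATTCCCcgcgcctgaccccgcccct
Tnfaip3: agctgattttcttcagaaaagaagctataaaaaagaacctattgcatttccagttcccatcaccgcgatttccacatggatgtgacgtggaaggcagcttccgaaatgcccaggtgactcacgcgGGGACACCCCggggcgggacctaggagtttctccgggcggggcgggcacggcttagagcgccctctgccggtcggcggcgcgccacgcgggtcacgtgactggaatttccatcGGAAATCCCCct

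Nfkb2 has several annotated starts on chromosome 19, and matches lay near each of them, of which 3 are printed here as 30 bases each on the plus strand (chr19:46304688-46304717, chr19:46304716-46304745 and chr19:46305695-46305724). Nfkbie, on the plus strand at chr17:45555584-45555613, and Bcl3, on the minus strand at chr7:19822734-19822763, had 1 match each. The windows of Rela and Nfkbib had none, which says only that these letters are not there.
Nfkb2, first stretch: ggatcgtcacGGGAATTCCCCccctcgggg
Nfkb2, second stretch: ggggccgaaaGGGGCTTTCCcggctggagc
Nfkb2, last stretch: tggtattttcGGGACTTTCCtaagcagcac
Nfkbie: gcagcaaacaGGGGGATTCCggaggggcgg
Bcl3: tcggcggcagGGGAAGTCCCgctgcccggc

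Among the subunits, the gene of RELA, the main activating subunit of the fast route, differed least. Rela stood at 11.70, 11.83 and 11.88 in the control and at 11.79, 11.87 and 11.83 in Dhx9.1241, so the groups overlapped and the lowest value was that of Rluc.713 replicate 1. The difference was 0.03 (SE 0.06, 95% interval -0.11 to 0.17, adjusted p = 0.939), and it was -0.02 without that array. The interval leaves room for a level up to 1.12-fold higher.

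Rel encodes c-Rel, the subunit most closely tied to lymphocytes. It stood at 12.51, 12.53 and 12.57 in the control and at 12.40, 12.38 and 12.48 in Dhx9.1241. All 3 Dhx9.1241 arrays lay below all controls, by a small step. The difference was -0.12 (SE 0.05, interval -0.24 to -0.0073), a level 1.09-fold lower, and it did not pass (adjusted p = 0.314, 0.0397 unadjusted). Under the 16 alternatives the adjusted p lay between 0.0634 and 0.689, lowest with a variance trend and robust estimation.

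The subunit genes of the slower route lay higher in the mean, and neither passed the test. Nfkb2, whose precursor protein both inhibits and yields a subunit, stood at 9.56, 9.58 and 9.37 in the control and at 9.76, 9.79 and 9.56 in Dhx9.1241. Replicate 3 was the lowest in each group, and Dhx9.1241 replicate 3 lay within the control values, so the groups overlapped. The means were 9.50 ± 0.117 and 9.70 ± 0.125 (SD, n = 3), and the difference of 0.20 (SE 0.081, interval 0.0135 to 0.39, adjusted p = 0.308) had the widest error of the 9 genes. Relb, the partner of the NFKB2 product, stood at 9.0, 8.86 and 8.83 against 8.98, 9.0 and 8.89. Here the first control replicate was as high as the Dhx9.1241 arrays. The difference of Relb was 0.06 (SE 0.061, interval -0.08 to 0.20, adjusted p = 0.794) and 0.12 without Rluc.713 replicate 1 (adjusted p = 0.245).

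**Figure D1:**
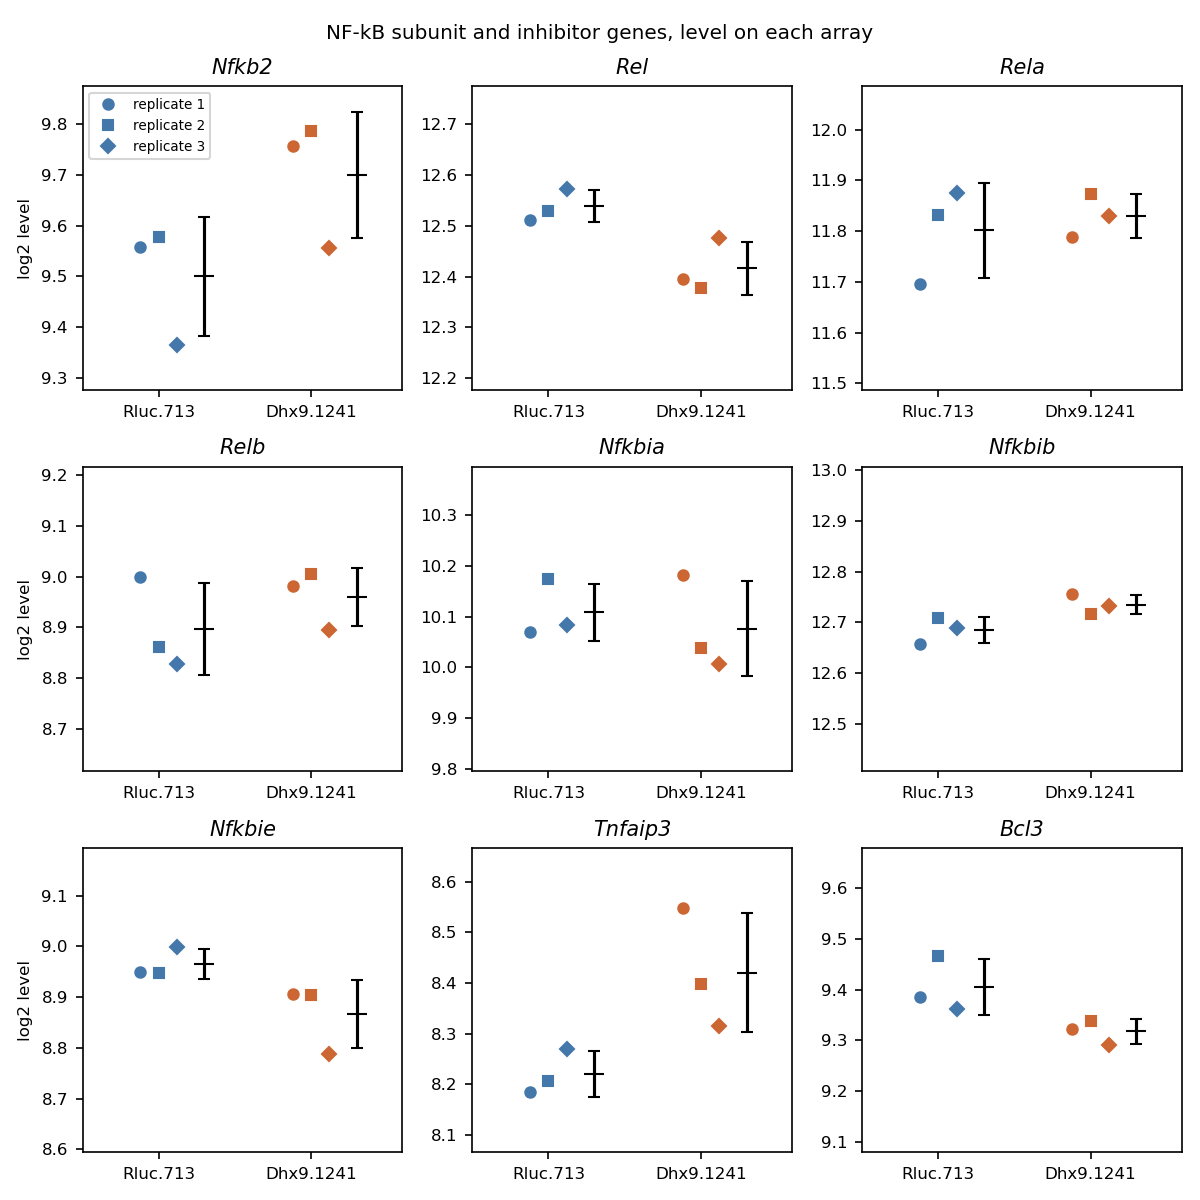
Log2 level of each NF-kB subunit and inhibitor gene (vertical axis) on each array, by hairpin (horizontal axis); circles, squares and diamonds are replicates 1, 2 and 3, and the black bar is the group mean with its SD (n = 3). All panels span the same log2 range; Rel, Nfkbie and Bcl3 lie wholly lower and Tnfaip3 and Nfkbib wholly higher in Dhx9.1241, and the other 4 genes overlap.

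None of the classical inhibitors passed the test. Nfkbia, the gene of IkB-alpha and a standard early NF-kB response gene, stood at 10.07, 10.17 and 10.08 in the control and at 10.18, 10.04 and 10.01 in Dhx9.1241. Its highest and lowest values both came from Dhx9.1241 arrays. The difference was -0.03 (SE 0.062, interval -0.17 to 0.11, adjusted p = 0.93), so the interval reaches no further than 1.08-fold higher. Nfkbib, the gene of IkB-beta, differed by 0.05 (SE 0.045, interval -0.05 to 0.15, adjusted p = 0.769), with control values of 12.66 to 12.71 and Dhx9.1241 values of 12.72 to 12.76. Nfkbie, the gene of IkB-epsilon, stood at 8.95, 8.95 and 9.0 against 8.91, 8.90 and 8.79. Its difference was -0.10 (SE 0.052, interval -0.22 to 0.02, adjusted p = 0.494), and the groups did not overlap.

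Bcl3 encodes a nuclear IkB-like protein that binds NF-kB on DNA and can activate as well as repress. Its level was 9.39, 9.47 and 9.36 in the control and 9.32, 9.34 and 9.29 in Dhx9.1241. Every Dhx9.1241 array was below the lowest control, with a gap smaller than the spread among the controls. The difference was -0.09 (SE 0.05, interval -0.20 to 0.03, adjusted p = 0.542).

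Tnfaip3, whose product A20 switches the pathway off upstream of IKK and is itself an NF-kB response gene, had the smallest p of the 9. It stood at 8.19, 8.21 and 8.27 in the control and at 8.55, 8.40 and 8.32 in Dhx9.1241. The groups did not overlap, but the Dhx9.1241 arrays spread over more than the gap between the groups. The means were 8.22 ± 0.045 and 8.42 ± 0.117 (SD, n = 3), the difference 0.20 (SE 0.067, interval 0.05 to 0.35), the unadjusted p 0.0165 and the adjusted p 0.197. No alternative brought it under the threshold; its adjusted p was lowest, 0.113, with array weights. Tnfaip3 was also the 1 member below the median level of all genes, and none was under the 25th percentile.

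Without Rluc.713 replicate 1, no gene passed either. The differences were then 0.23 for Nfkb2, -0.14 for Rel, -0.05 for Nfkbia, 0.04 for Nfkbib, -0.11 for Nfkbie, 0.18 for Tnfaip3 and -0.10 for Bcl3, each of the same sign as with all arrays; that of Nfkbia was over 1.5 times as large, from -0.03.

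In all, 5 of the 9 genes had groups that did not overlap, 2 higher and 3 lower, where 20.1% of all genes had such groups, 11.6% higher and 8.51% lower. The median of the 9 differences was 0.03 and the median of their sizes 0.09; over all genes the same medians were 0.0049 and 0.054. The smallest difference called in any gene was 0.21 in size. The widest bound of any of the 9 intervals was that of Nfkb2, at 1.31-fold higher, and on the lower side that of Rel, at 0.849 of the control level. A change of 1.5-fold in either direction therefore lay outside every interval, on the assumption that these 3 arrays a group stand for the cells.

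**Figure D2:**
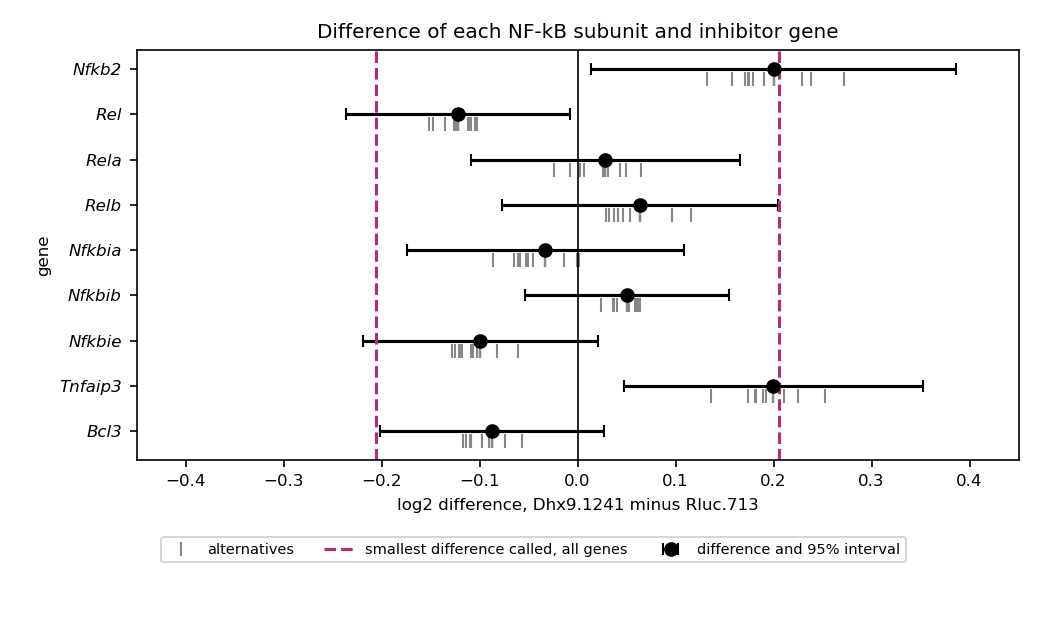
Log2 difference of each gene, Dhx9.1241 minus Rluc.713 (horizontal axis), with its 95% interval (black) and its value under each alternative processing (grey ticks; 16 for each gene, 15 for Tnfaip3). Dashed lines mark the smallest difference called among all genes, 0.21 in either direction; Nfkb2 and Tnfaip3 come closest to it.

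The genes did not move as 1 block across the arrays. Over the 36 pairs of members, the Pearson correlation of log2 levels on the 6 arrays had a median of -0.03 and ran from -0.95 for Nfkb2 with Rel to 0.83 for Nfkbib with Tnfaip3. Nfkb2 and Rel ran opposite within the groups too (r = -0.95 for the deviations from the group means), with replicate 3 of each hairpin lowest in Nfkb2 and highest in Rel. The 3 genes whose levels followed Nfkb2 most closely were Sqle, an enzyme gene of cholesterol synthesis (r = 0.998), Pnma1 (0.991) and Agr2 (0.988), none of which passed the test. In mean level, Pnma1 lay below the median of all genes and Agr2 below the 25th percentile. These correlations are descriptions over 6 arrays that share their normalization, taken as the highest among all genes.

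The signalling genes around the factors passed at about the share of all genes. In 6 lists of IKK kinases, adaptors, receptors, deubiquitinases, IkB-like proteins and cofactors, 69 of 76 genes were measured, of which 1 rose, 1 fell and 67 did not pass. That is 2.90%, beside 3.14% of all genes. These lists too were written with earlier results of the arrays known. The gene that rose was Ikbke, an IKK-related kinase that activates interferon regulatory factors, 1 of 11 in its list. It stood at 8.13, 8.27 and 8.15 in the control and at 8.64, 8.43 and 8.51 in Dhx9.1241, with no overlap. The difference was 0.35 (SE 0.068, adjusted p = 0.0341). The Ikbke call was lost under 9 of the 15 alternatives that tested it. Among them were leaving out any 1 array but Rluc.713 replicate 1 (adjusted p 0.0537 to 0.132) and the replicate number as a block (0.111). Those omissions also cut the share called over all genes, from 3.14% to between 1.09% and 1.54%, and the block cut it to 1.41%.

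The gene that fell was Hdac1, a histone deacetylase that can act as a corepressor of RELA, 1 of 12 cofactor genes. It stood at 12.77, 12.79 and 12.84 in the control and at 12.41, 12.48 and 12.56 in Dhx9.1241. The groups lay far apart for their spread, with a difference of -0.32 (SE 0.055, adjusted p = 0.0194). That call was lost without Rluc.713 replicate 2 (0.0735) or 3 (0.0821), without Dhx9.1241 replicate 1 (0.0982) or 2 (0.0847), and with the replicate block (0.0556).

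The other lists held no call. Among 13 receptor genes, Cd40, a receptor that drives the slower route, was at a difference of 0.24 (adjusted p = 0.0642) and Tlr9, the receptor for unmethylated DNA, at -0.23 (0.0836). Each came under the threshold in some alternatives: Cd40 in 4, without Rluc.713 replicate 1 among them (0.0236), and Tlr9 in 5, cyclic loess among them (0.0437). Tnfrsf13c, the gene of the BAFF receptor, which also feeds the slower route, was at -0.11 (0.332). It was named after its value was seen. Of the 13 receptor differences, 7 were positive and 6 negative. Among 12 deubiquitinase genes and partners of A20, N4bp1 stood at 0.20 (adjusted p = 0.119) and Otulin, which removes linear ubiquitin chains, at 0.16 (0.132). Both came under the threshold in 2 alternatives, with dim genes under the median left out (0.0432 for N4bp1 and 0.0403 for Otulin) and with trended, robust variances (0.019 and 0.0321). Among 15 adaptor and ligase genes, Bcl10, of the antigen receptor complex with MALT1, stood at -0.15 (0.199) and Rnf31, of the linear ubiquitin ligase, at 0.11 (0.385). Among 6 IkB-like or IkB-binding genes, Nkiras2 stood at 0.19 (0.186) and Nfkbiz at 0.14 (0.398), or 0.20 without Rluc.713 replicate 1.

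**Figure D3:**
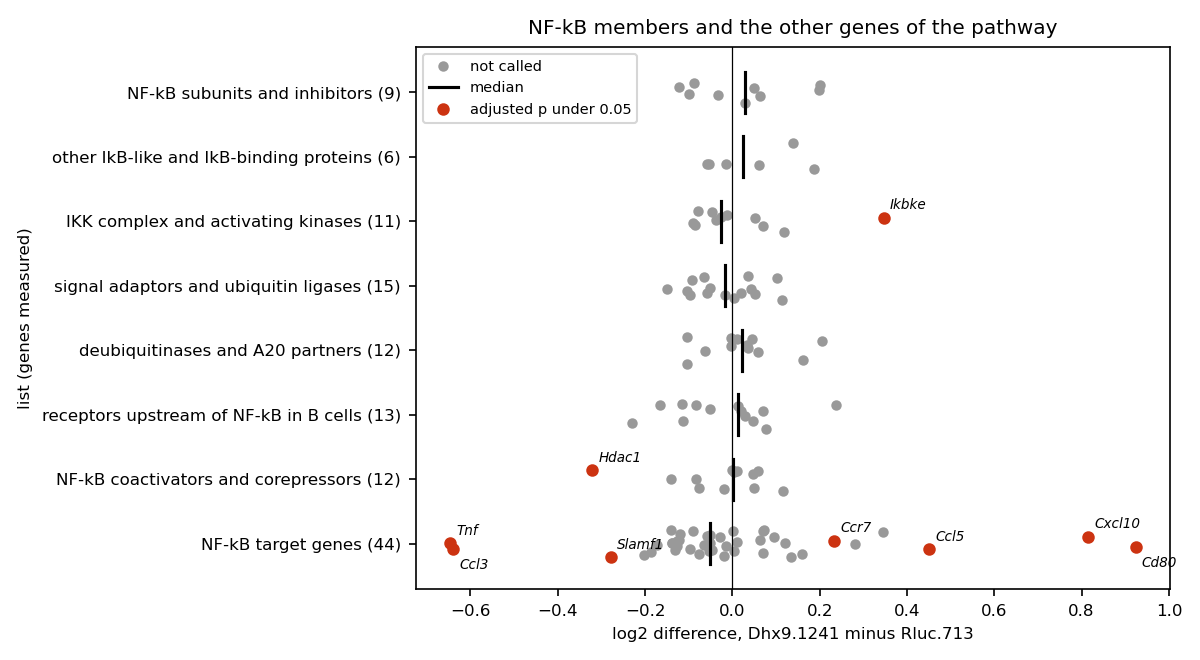
Log2 difference, Dhx9.1241 minus Rluc.713 (horizontal axis), of every measured gene in 8 lists (vertical axis, with the number measured); red points passed at an adjusted p under 0.05 and black bars are list medians. The members show no red point, the 6 signalling lists show Ikbke and Hdac1, and the target list spreads from -0.65 to 0.92.

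Genes known to be switched on by NF-kB moved in both directions. Of 44 measured target genes, 4 rose, 3 fell and 37 did not pass. That is 15.9% called, beside 3.14% of all genes (2.07% higher and 1.07% lower). The median difference was -0.05 against 0.0049 over all genes. The list was written with earlier results of these arrays known, in which some of these genes already stood out, so its count is not independent evidence. The largest rise was that of Cd80, a costimulatory ligand of B cells, from 9.51 ± 0.168 to 10.44 ± 0.058 (SD, n = 3), or 1.90-fold (adjusted p = 0.00135). Cxcl10, a chemokine gene also induced by interferon, stood at 8.72, 8.66 and 8.76 in the control and at 9.44, 9.59 and 9.56 in Dhx9.1241, a 1.76-fold rise (adjusted p = 0.000534). For both genes all Dhx9.1241 arrays lay well above all controls.

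The falls were led by the gene of the cytokine TNF, which is both a target and an activator of the pathway. Tnf stood at 10.69, 10.76 and 10.64 in the control and at 10.05, 10.10 and 9.99 in Dhx9.1241, a level 1.57-fold lower (difference -0.65, SE 0.054, adjusted p = 0.000961). Ccl3, a chemokine gene of activated B cells and macrophages, fell by 0.64 (SE 0.132, adjusted p = 0.043), with a wide spread among the Dhx9.1241 arrays, 10.18 to 10.67. The Ccl3 call was lost when any array but Dhx9.1241 replicate 2 was left out (adjusted p 0.051 to 0.178). The 3 further called genes, named after their values were seen, were Ccl5 (0.45) and Ccr7 (0.23), both higher, and Slamf1 (-0.28), lower. Slamf1 was not among the genes called with those under the 25th percentile of level left out. It was not called after quantile normalization again, after cyclic loess or with the replicate block either.

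The counts of target genes varied with the arrays used, as did those of all genes. They were 2 higher without Dhx9.1241 replicate 1, 2 or 3. They were 1 lower without Rluc.713 replicate 2 or 3 or Dhx9.1241 replicate 1 or 3. Without Rluc.713 replicate 1 they were 4 and 3, as with all arrays. Of all genes, 389 were higher and 201 lower with all arrays, and 497 and 399 without Rluc.713 replicate 1. Leaving out any other array left 126 to 203 higher and 70 to 86 lower. Beside the falls of Tnf and Ccl3, which macrophages also express, 4 of 15 measured myeloid markers fell and none rose. Over all genes 1.07% fell and 2.07% rose. Of the 15 differences, 13 were negative and 2 positive. Their median was -0.08, and the lowest, -1.31 in 1 marker, was also the lowest of all genes. The mean log2 level of the 15 was between 8.06 and 8.10 in the control and between 7.90 and 7.91 in Dhx9.1241. The part of myeloid cells in the falls of Tnf and Ccl3 was not tested.

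**Figure D4:**
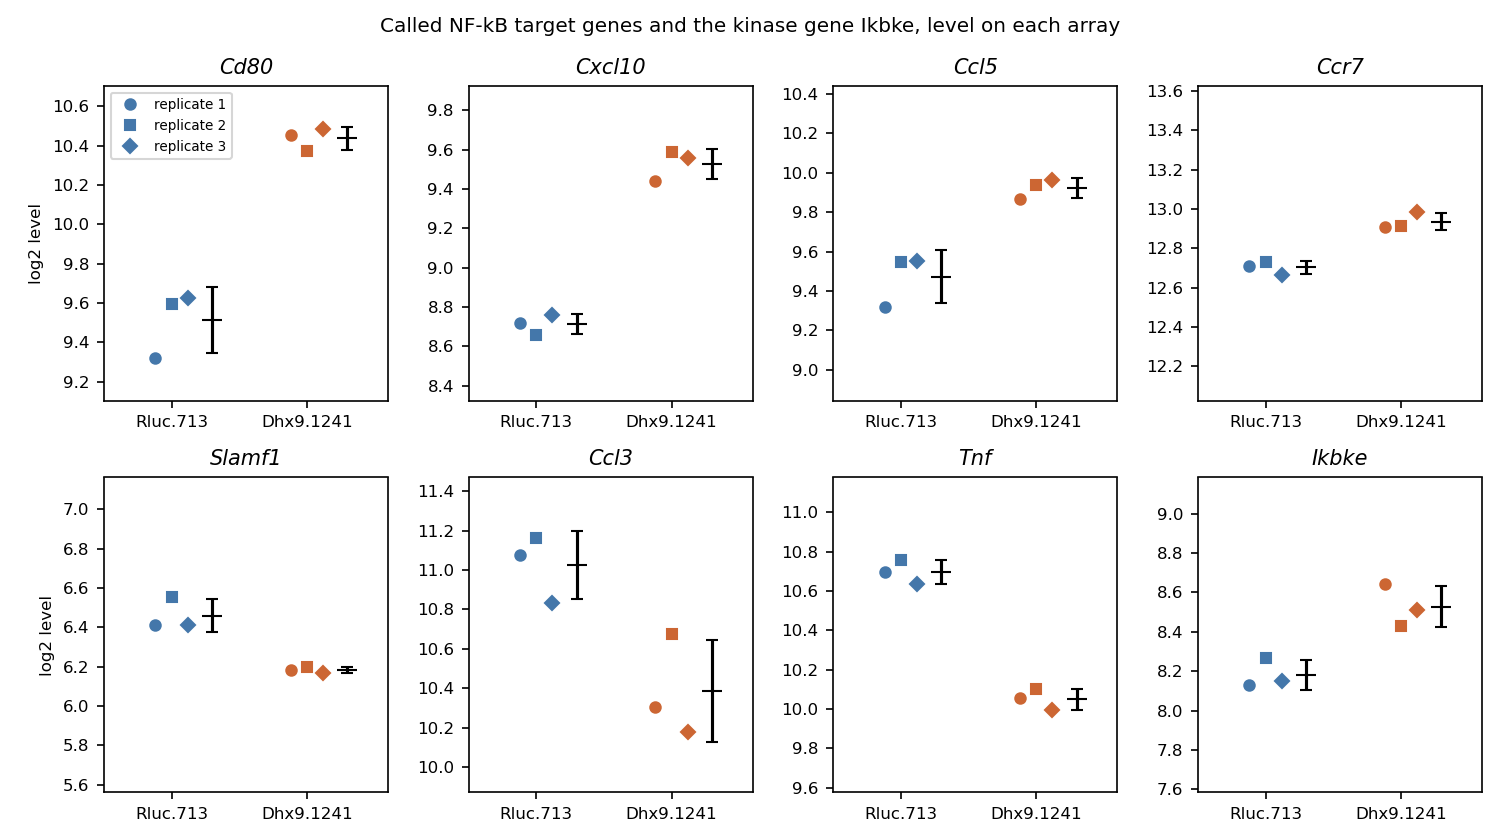
Log2 level (vertical axis) on each array of the 7 called NF-kB target genes and of Ikbke, by hairpin (horizontal axis); symbols are replicates 1 to 3 and the black bar is the mean with its SD (n = 3). In each panel the groups do not overlap: Cd80, Cxcl10, Ccl5, Ccr7 and Ikbke lie higher and Slamf1, Ccl3 and Tnf lower in Dhx9.1241.

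Among the called target genes, only Cxcl10 held matches near the start, and genes that did not pass held them too. The 6 members with a match included none that passed. Of 32 target genes with a RefSeq window, 10 held a match. Cxcl10 held 2, printed here as 30 bases each on the minus strand (chr5:92349029-92349058 and chr5:92348973-92349002) for comparison with those of Nfkbia and Nfkb2, whose levels did not pass the test. The windows of Cd80, Tnf, Ccl3 and Slamf1 held none of these letters, and sites farther away were not searched. Ccl5 and Ccr7 had no window.
Cxcl10, first stretch: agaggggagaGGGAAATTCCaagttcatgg
Cxcl10, second stretch: cggtttacagGGGACTTCCCtcgggttgcg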

How the data were processed

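RNA from 3 Rluc.713 and 3 Dhx9.1241 samples was labelled with the 3′ IVT Express kit (per the labels' protocols). The authors deposited log2 values, 1 per probe set and array, made by RMA (background correction, normalization and probe summary), per the submitters' processing notes; RMA tends to compress folds of dim genes. The version of RMA, the definition of probe sets and the build were not given in the sources used here. Precision is limited by the number of arrays.

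Of 21212 probe sets, 18786 had 1 symbol, 6 several and 2420 are unnamed here; 18775 were matched by Entrez number to a table of current symbols. The brighter probe set was kept for 2 genes, which left 18784 genes with no filter. Dhx9.1241 minus Rluc.713 was fitted over all genes with limma 3.58.1 (lmFit, eBayes) in R 4.3.3, two-sided, with Benjamini-Hochberg adjustment and a threshold of 0.05; the fit was tested on simulated data. Named genes were all members, Dhx9, up to 4 called genes a list (or the 2 largest differences where none was called), and the 3 genes most like the member of largest difference. The members and lists were chosen with earlier results of these data known. The lists held 10 members, 76 signalling and 47 target genes, and markers of B, myeloid, fibroblast, and T and NK cells. The last list had 0 of 11 genes called, and 1 of 16 fibroblast and 1 of 10 B cell markers fell, beside 1.07% of all genes. The kB consensus was searched on both strands of RefSeq windows (GRCm38.p6). The 16 alternatives changed the probe set rule, filter, normalization, variance model, array weights or block, or left out 1 array.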

Additional observations from a re-analysis of the deposited data

How the results depend on the processing

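No member was called under any of the 16 alternatives (143 values over the 9 genes, since Tnfaip3 fell outside the filter at the median level). Signs held for 7 genes; that of Rela turned with array weights and without Rluc.713 replicate 1, and that of Nfkbia without Dhx9.1241 replicate 3, all within the error. Of the target genes, 2 to 4 were higher and 1 to 3 lower when 1 array was left out, and the other alternatives kept both counts within 1.5 times. Of the signalling genes (1 and 1 with all arrays), 0 to 2 were higher and 0 to 1 lower when 1 array was left out. The counts higher and lower were 3 and 3 with genes under the median level left out, 3 and 2 under trended and robust variances, 2 and 2 with array weights, 0 and 2 after quantile normalization again and after cyclic loess, and 0 and 0 with the replicate block; 2 were higher with genes under the 25th percentile of level left out, and 0 after centring each array on its median. Over all genes, the share called was 10.6% with genes under the median level left out and 6.06% under trended and robust variances. It was 6.45% with array weights, 4.62% after quantile normalization again and 4.51% after cyclic loess. With genes under the 25th percentile left out it was 5.1%, after centring 2.32% and with the replicate block 1.41%. When 1 array was left out it was 1.09% to 4.77%, beside 3.14% in the main fit. The cause was not tested. Among other named genes 19 values lost and 13 gained a call. The deviations of same-numbered arrays from their group means had r = -0.27, -0.34 and 0.24. With 3 arrays a group, such values cannot tell whether the numbers pair the samples. The replicate block called 0 members, and 172 genes higher and 92 lower of all genes against 389 and 201. No detection calls were used, so dim genes have no known floor.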
